A study of Mus musculus with 6 samples.

Results

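Genes for developmental transcription factors were examined in the NF-YA peaks of cultured muscle stem cells (MuSCs). They were chosen by gene symbol alone, without use of any measured level: Hox genes, the TALE homeobox genes (Meis, Pbx, Tgif and Irx), other homeobox genes (Prrx, Msx, Lhx, Dlx and Nkx), T-box, forkhead, GATA and Sox genes, with Foxm1 left out. The rule found 50 peaks annotated to 45 genes, of 9056 peaks in all, and 5146 of the 9056 carried a gene symbol. The 50 peaks comprised 12 Hox, 7 TALE, 6 other homeobox, 2 T-box, 17 forkhead, 1 GATA and 5 Sox peaks. One of the forkhead peaks belongs to Foxred1, which matches the rule by its letters but encodes an oxidoreductase and not a forkhead factor.

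CUT&RUN, in which an antibody directs a nuclease to cut chromatin around a bound protein, was performed on MuSCs of C57BL/6 wild-type mice. The cells had been sorted from muscle and expanded in culture, and are labelled activated and proliferating. Of 6 libraries, 3 were made with an antibody against NF-YA and 3 with mouse IgG, and every value below comes from the 3 NF-YA libraries, since IgG values were not analysed here. The study describes the NF-YA libraries as biological replicates. There is therefore 1 group, and the comparisons are between sets of peaks and not between conditions. The assay shows where NF-YA was found and not whether a gene was transcribed, so the labelled cell type was not checked against marker genes.

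NF-Y is a trimer of NF-YA, NF-YB and NF-YC. The NF-YA subunit reads the CCAAT box, a short element found mostly in the stretch just upstream of gene starts, on either strand. Hox genes lie in clusters and assign position along the body axis. Pbx and Meis proteins are their DNA-binding partners, and Pbx and Meis also bind beside MyoD at muscle genes. FoxO factors are known for maintaining quiescence of adult stem cells, and Sox, T-box, Dlx, Msx, Irx, Nkx and GATA factors pattern the embryo and fix cell fates.

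Levels are given as normalised read counts, that is, reads in a peak divided by a scaling factor of the library. They rise with the length of the peak, so levels of different genes are compared per kb of peak, and where a mean or a rank of read counts is given it is not scaled for length. Reads in all peaks numbered 481268, 226897 and 334599 in replicates 1, 2 and 3, a range of 2.12-fold, as recovered from the steps between the values. A limit of 3 reads corresponded to normalised counts of 1.99, 4.43 and 3.06. Above it in every library were 42 of the 50 peaks (84%, 95% Wilson interval 71.5 to 91.7), beside 80.9% of all peaks. The 8 peaks that were not above it in every library were those of Hoxc13, Hoxa5, Hoxa4, Msx1, Tbx2, Foxl1, Foxc1 and Sox30. No developmental transcription factor peak was at 0 in any library. Few peaks were: 7, 110 and 52 of all 9056 in replicates 1, 2 and 3. Intervals of shares cover counting error over peaks or genes only.

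The CCAAT boxes under the promoter peaks are shown first, because they are the element that NF-Y reads. Coordinates are mm10 and 1-based, the sequence runs 5′ to 3′ along the strand of the gene, and capitals mark CCAAT or its reverse complement ATTGG. Windows of 50 bp to either side of the peak centre are printed. Where this central window touched an untranslated region, or the box lay outside it, only 25 bases around the box nearest to the peak centre are printed. The windows of 3 Hox promoter peaks that held a box are shown:
Hoxa4, chr6:52191910-52192010, minus strand: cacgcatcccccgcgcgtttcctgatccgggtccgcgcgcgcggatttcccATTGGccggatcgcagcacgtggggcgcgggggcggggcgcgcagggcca
Hoxc6, chr15:102998137-102998237, plus strand: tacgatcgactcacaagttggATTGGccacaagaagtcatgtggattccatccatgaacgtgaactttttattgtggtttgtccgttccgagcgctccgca
Hoxc13, chr15:102920770-102920870, plus strand: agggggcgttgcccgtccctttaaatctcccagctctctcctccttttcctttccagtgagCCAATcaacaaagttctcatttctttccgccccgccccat

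In 2 of these 3 windows the box read ATTGG along the gene, so CCAAT was on the opposite strand. The Hoxc13 box read CCAAT on the strand of its gene. The Hox promoter peak at Hoxa5 held no box.

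In the other families the promoter peaks with the most reads that held a box are shown, up to 2 a family, to allow comparison with the Hox boxes:
Pbx3, chr2:34373172-34373196, minus strand: gcgcaatgcgATTGGccctgtgctt
Nkx6-1, chr5:101665371-101665471, minus strand: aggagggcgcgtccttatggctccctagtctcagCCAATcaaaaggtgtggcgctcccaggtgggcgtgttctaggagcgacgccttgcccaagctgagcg
Dlx3, chr11:95119998-95120098, plus strand: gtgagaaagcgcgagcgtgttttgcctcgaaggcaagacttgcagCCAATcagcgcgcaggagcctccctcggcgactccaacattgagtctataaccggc
Tbx3, chr5:119670921-119670945, plus strand: cagccacacaATTGGtccgaaagcg
Tbx2, chr11:85832712-85832736, plus strand: gagacccacaATTGGtccaaaaagc
Foxred1, chr9:35211068-35211092, minus strand: tcaagcctgaCCAATagcacacagg
Foxc2, chr8:121116052-121116152, plus strand: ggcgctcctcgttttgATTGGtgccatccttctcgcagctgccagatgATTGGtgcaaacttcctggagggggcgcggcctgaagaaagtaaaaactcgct
Sox4, chr13:28953732-28953756, minus strand: acagcggctgATTGGctgtctgaga
Sox9, chr11:112782095-112782195, plus strand: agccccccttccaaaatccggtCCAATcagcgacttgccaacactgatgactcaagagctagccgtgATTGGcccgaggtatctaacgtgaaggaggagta

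The contexts of the boxes in Tbx2 and Tbx3, which encode closely related T-box repressors, were the same at 18 of 25 positions. These positions include the bases of the box itself, on which the contexts were aligned. Other pairs of boxes were not compared. The Foxc2 window held 2 boxes on 1 strand, whereas the Sox9 window held 1 on each strand.

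Over all families, 36 of the 50 peaks held CCAAT on either strand in the central window of 50 bp to either side (72%, interval 58.3 to 82.5). The share was 59.1% over all peaks with a gene symbol and 52.9% over all 9056 peaks. In windows 1000 bp to the left and right of the same 50 peaks it was 10% and 20%, beside 12.2% and 12.4% for all peaks. A longer consensus, 2 purines before CCAAT followed by C or G and then a purine, was present in 23 of 50 peaks (46%, interval 32.97 to 59.6), in 30.2% of peaks with a symbol and in 24.96% of all peaks. The interval of the longer consensus lay above both background shares, whereas that of CCAAT itself reached down to 58.3%, below the share over peaks with a symbol. These are descriptions of the peaks, which are themselves part of both backgrounds. No test of a difference was made, and a match is not a site.

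By family, with few peaks in each, a central box was found in 10 of 12 Hox, 2 of 7 TALE, 4 of 6 other homeobox, 1 of 2 T-box, 13 of 17 forkhead, 1 of 1 GATA and 5 of 5 Sox peaks. All 5 Sox peaks also held the longer consensus, and none of the 7 TALE peaks did. The 3 Pbx peaks had no box in the central window, although the whole peaks held 4 boxes at Pbx3 and 2 at Pbx4, the nearest of them 117 and 56 bp from the peak centre.

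Counted over whole peaks, 71 boxes lay in 44 of the 50 peaks. Of these boxes 42 were in peaks within 1000 bp of the listed gene start, and 26 of the 42 lay at most 200 bp upstream of that start, with a median position of 68 bp upstream. The box was on the strand of the gene in 15 of 42 cases. The histogram of box positions shows that most boxes were close to the peak centre.

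**Figure D1:**
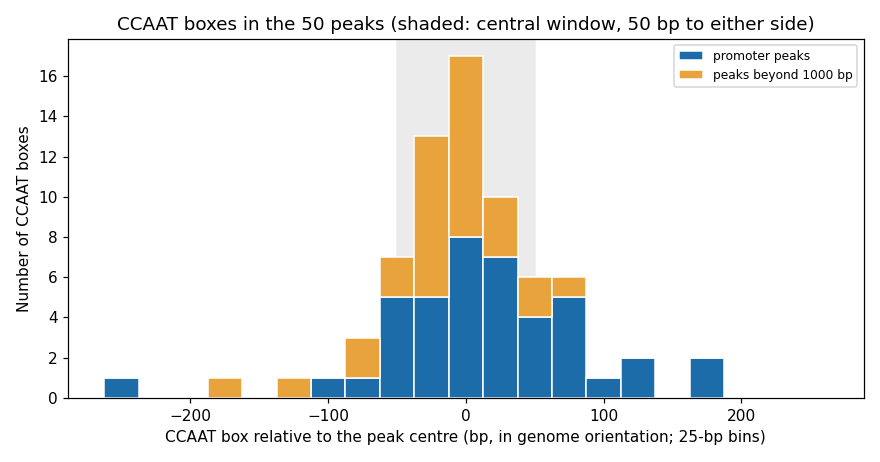
Number of CCAAT boxes (y axis) by distance from the peak centre in bp (x axis, 25-bp bins, genome orientation) for the 71 boxes in the 50 peaks, with promoter peaks in blue and peaks beyond 1000 bp from the listed gene start in orange. The highest bin is that at the centre, and 14 of the 50 peaks had no box inside the shaded central window, 27 had 1 and 9 had 2.

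Neighbouring boxes on the same strand formed 17 pairs, and 5 of them were 30 to 32 bp apart, start to start (29.4%, interval 13.3 to 53.1). Over all peaks with a symbol 334 of 2633 such pairs had this spacing, 12.7%. That share lies just below the interval for the 17 pairs, which are few and were looked at because of their spacing. The pairs were at Dlx1 (31 bp) and at Foxc2, Foxo1, Sox12 and Sox30 (32 bp each). Those in untranslated sequence are not printed, and the Foxc2 pair is in the window above, so 3 pairs, chosen after their spacing was seen, show the arrangement:
Foxo1, chr3:52268272-52268328, plus strand: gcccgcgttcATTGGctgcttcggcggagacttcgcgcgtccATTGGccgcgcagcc
Sox12, chr2:152406222-152406278, minus strand: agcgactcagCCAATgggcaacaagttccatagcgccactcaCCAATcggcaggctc
Sox30, chr11:45980131-45980187, plus strand: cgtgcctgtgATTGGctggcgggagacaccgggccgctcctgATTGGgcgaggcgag

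The question of how often NF-YA was found at these genes was addressed against all protein-coding genes of the annotation. Of 173 protein-coding genes that match the rule, 45 had at least 1 peak (26.0%, interval 20.1 to 33.02), beside 19% of all 21951 protein-coding genes. A peak within 1000 bp of the listed start was found for 28 of the 173 (16.2%), beside 3243 of the 21951. These 2 shares lay closer together than those for any annotated peak. Forkhead genes, counting Foxred1 and Foxred2, had a peak in 15 of 45 cases, Hox genes in 12 of 39, TALE genes in 5 of 17, Sox genes in 5 of 19, other homeobox genes in 5 of 34, T-box genes in 2 of 13 and GATA genes in 1 of 6. Peaks were found at 3 of 4 Pbx genes, 3 of 4 Foxo genes and both Foxc genes. None of the 4 Tgif, 3 Prrx or 8 Lhx genes had one, and only Nkx6-1 did among 14 Nkx genes.

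A CCAAT box also occurred at starts of these genes that had no peak. In the 300 bp from 250 bp before to 50 bp after the annotated gene start, 60 of 128 family genes without a peak held CCAAT (46.9%, interval 38.5 to 55.5), beside 33.3% of all protein-coding genes without a peak. Among the 28 family genes with a promoter peak it was 21 (75%, interval 56.6 to 87.3), and among all protein-coding genes with a promoter peak 74.1%. For Hox genes the numbers were 10 of 12 with a peak and 16 of 27 without.

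Position relative to the listed gene start came next. The centre was within 1000 bp of the start for 28 of 50 peaks (56%, interval 42.3 to 68.8), beside 68.4% of all peaks with a symbol, a share that this interval includes. The peak was upstream of the start in 33 of 50 cases, and 13 peaks spanned it. When starts of other annotated transcripts were counted, 31 peaks were no more than 1000 bp from any start of the listed gene. Another 6 were near a start of a different gene and of none of the listed gene, and 13 lay near no annotated start. For the 6 the gene name of the file is the nearest by its own rule and not the gene whose start lies there.

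The 28 promoter peaks had lower read counts than promoter peaks in general. Their median was 18.5 in each of the 3 libraries, whereas the median over all 3519 promoter peaks with a symbol was 31, 30 and 32. The log2 ratio was -0.74 ± 0.05 (SD, n = 3), a fold of 0.597, and per kb of peak it was -0.49 ± 0.02. The SD of a ratio, here and below, covers the spread between libraries only. It does not cover the spread over the peaks, whose means ran here from 3.67 to 119. All 3 libraries lay on the same side, on both scales. The 28 included 6 Hox promoter peaks, with medians of 9.5, 5.5 and 6. Their median per kb was 54.4, beside 90.2 for all 28. The ratio without the Hox peaks was not computed.

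Away from the listed gene start the order was the other way round. The 22 peaks beyond 1000 bp had medians of 18.5, 28 and 24.5, whereas all 1627 such peaks with a symbol had medians of 12, 13 and 13. The log2 ratio was 0.88 ± 0.24 (n = 3), and 0.43 ± 0.18 per kb. It too had the same sign in each library. Of the 22 peaks, only 13 had no annotated transcript start within 1000 bp. The rest lay near a start of another gene or another start of the listed gene. The level of the 13 alone was not compared with the background, so the higher median is not shown for peaks away from every start. With 3 libraries an exact sign-flip permutation cannot give a two-sided p below 0.25, so no p is given for these ratios.

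**Figure D2:**
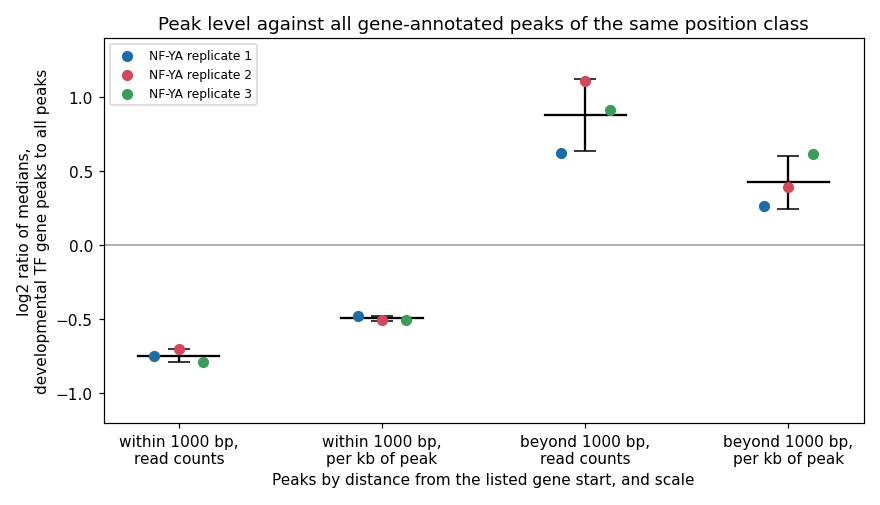
log2 ratio (y axis) of the median level over developmental transcription factor peaks to that over all peaks with a gene symbol, for peaks within and beyond 1000 bp of the listed gene start, as read counts and per kb of peak (x axis). Points are the 3 NF-YA libraries, and the line and bars are their mean and SD. Promoter peaks lie below 0 in every library (-0.74 for read counts) and the others above it (0.88). Of the 22 others, 13 had no annotated transcript start within 1000 bp. The promoter peaks include 6 Hox peaks, with medians of 9.5, 5.5 and 6 normalised reads.

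Over all 50 peaks the medians were 18.5, 23 and 22 beside 21, 22 and 22 for peaks with a symbol, a log2 ratio of -0.04 ± 0.13, within the spread between libraries. Within the 50 peaks, promoter peaks were at a log2 ratio of -0.33 ± 0.31 (n = 3) to the others, about the size of its own spread and 0 in replicate 1. Over all peaks with a symbol the same ratio was 1.29 ± 0.08. When all 9056 peaks were cut into 4 equal classes by level, from weakest to strongest, the 50 peaks were divided 10, 10, 15 and 15. The 12 Hox peaks were divided 3, 4, 4 and 1.

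Levels of peaks with and without a central CCAAT box were then set side by side. The median of the mean read count was 21.2 for the 36 with a box and 20.2 for the 14 without. Of the 25 peaks above the median level 18 held a box, and of the 25 at or below it also 18, a difference of 0 percentage points with an interval of -23.9 to 23.9. Over all peaks, 65.7% of the stronger and 40.4% of the weaker ones held a box, a difference of 25.3 points (23.3 to 27.2). For the 50 peaks the difference was 16 points when they were divided by level per kb, and 12 points when boxes up to 100 bp to either side of the centre were counted, so its size depends on these choices.

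**Figure D3:**
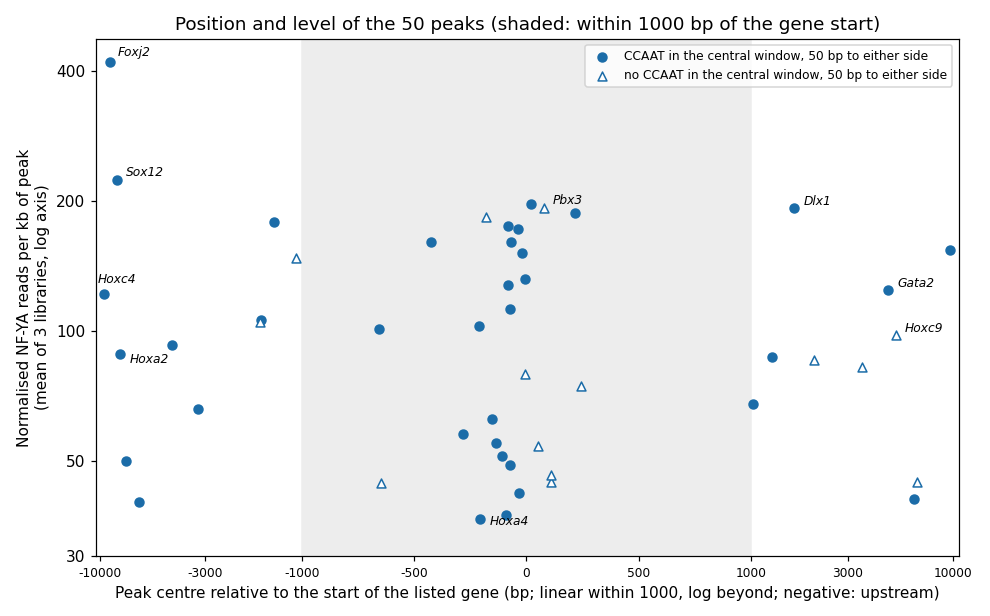
Distance in bp of each of the 50 peak centres from the listed gene start (x axis, linear within 1000 bp and log beyond, negative upstream) against the mean level in normalised reads per kb of peak (y axis, log). Filled circles hold CCAAT in the central window and open triangles do not. Foxj2 and Sox12, the highest at 420 and 223 reads per kb, lie 8914 and 8231 bp upstream of the listed gene.

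Most Hox peaks were listed for genes of the Hoxa and Hoxc clusters. A peak was annotated to 5 of 11 Hoxa genes and 5 of 9 Hoxc genes, but to 1 of 10 Hoxb and 1 of 9 Hoxd genes. The intervals of these shares overlap widely (21.3 to 72.0 and 26.7 to 81.1% for Hoxa and Hoxc, 1.79 to 40.4 and 1.99 to 43.5% for Hoxb and Hoxd). Hox peaks had a median of 66.6 normalised reads per kb beside 99.5 for all peaks with a symbol.

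Among the Hox promoter peaks, those of Hoxa4, Hoxa5, Hoxc6, Hoxc10 and Hoxc13 were between 36.7 and 57.5 normalised reads per kb, some of them near the 3-read limit. Hoxa4 had 7, 1 and 3, the lowest mean of all 50 peaks, and was above the limit in 1 library only. Hoxa5, a regulator of cervical and thoracic pattern, had 8, 3 and 6. Both were highest in replicate 1, which had the most reads in peaks, and lowest in replicate 2, which had the fewest and where 7 of the 50 peaks were at or below the limit.

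The 3 promoter peaks in the Hoxc cluster were at 48.7, 54.8 and 57.5 per kb for Hoxc6, Hoxc10 and Hoxc13. Hoxc6 had 6, 7 and 6, which is a close spread, and Hoxc10, a hindlimb and lumbar gene, had 11, 7 and 5. Hoxc13, known for its role in hair and nail, had 16, 4 and 19 and so was below the 3-read limit in replicate 2. The Hoxc10 peak is also near the start of a long Hoxc5 transcript. In these 3 peaks the nearest CCAAT box lay 97, 118 and 270 bp upstream of the listed start.

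The remaining Hox peaks were not at the listed promoter, and some of them sat at the start of a neighbour. The peak listed for Hoxa7 (23, 13 and 22) lies 4361 bp upstream of Hoxa7, in an untranslated region and at a start of Hoxa9. That listed for Hoxc4 (23, 34 and 28) lies 9477 bp upstream, in an intron of Hoxc5 and Hoxc6 and near a start of Hoxc6. That listed for Hoxa2 (33, 33 and 22) is 7918 bp upstream, in an untranslated region of Hoxa3 and near a start of the noncoding gene Gm15050. Which of the overlapping Hox transcripts these peaks belong to cannot be told from the file.

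Hoxc9 had 13, 34 and 32 in an untranslated region of the gene itself, 5177 bp downstream of the start, with replicate 1 well below the others. Hoxb2 had 11, 12 and 9, 1021 bp downstream of the start and in an exon. Hoxd3 had 8, 7 and 11, in an intron of the antisense gene Hoxd3os1. Of the 3, the Hoxb2 and Hoxd3 peaks held a central box and the Hoxc9 peak did not.

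The Pbx genes, which encode cofactors that bind DNA together with Hox and Meis proteins, included the homeobox promoter peak with the highest level per kb, that of Pbx3. Pbx3 had 78, 142 and 137 (chr2:34372757-34373376, 76 bp downstream of the start), with replicate 1 well below the other libraries. Pbx4 had 35, 41 and 32 and spanned the start. Per kb, Pbx3 was at 192 and Pbx4 at 79.5.

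Meis1, a TALE factor that forms complexes with Pbx and Hox proteins, had 12, 12 and 21 at a peak 1586 bp upstream, with 2 CCAAT boxes on opposite strands. Irx5, an Iroquois factor of heart and limb, was the only gene with 3 peaks. Of its peaks, the one 1366 bp upstream had 40, 33 and 49, and the one 1600 bp upstream had 7, 9 and 16. Both are near the start of Crnde, a noncoding gene next to Irx5. The peak just inside Irx5, 109 bp downstream of the start, had 11, 10 and 5 and held no box. Per kb the peaks at 1366 and 1600 bp upstream and 109 bp downstream were at 178, 105 and 44.7.

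Among the other homeobox genes Dlx1 had the highest level per kb (192). This gene, which drives interneuron development, had 58, 52 and 38 at a peak 1636 bp downstream of the listed start that lies near the start of another Dlx1 transcript. Nkx6-1, a factor of pancreatic beta cells and motor neurons, had 34, 41 and 43 at 425 bp upstream. Dlx3, of skin and tooth, had 20, 21 and 16 at its start, with a second peak of 11, 6 and 9 located 6628 bp downstream. Msx2, which acts in limb and skull, had 17, 16 and 16, the narrowest spread of the 50 peaks (CV 3.53%). Msx1, a repressor of muscle differentiation, had 5, 4 and 5, at or near the limit.

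The Tbx3 and Tbx2 peaks both lay in an untranslated region of their gene. Tbx3, which acts in limb and mammary gland, had 44, 53 and 69 at 215 bp downstream of the start. Tbx2, which acts in heart and limb, had 9, 3 and 8 at 109 bp downstream. The counts of the 2 peaks did not overlap, and per kb they were 187 and 46.3. Each gene has a noncoding neighbour that starts within 1000 bp, Tbx3os1 and 2610027K06Rik.

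Of the forkhead peaks, the one listed for Foxj2 was the highest of all 50 per kb (420). Its read counts were 203, 191 and 204, which ranked 250 of 9056 by mean. It is centred 8914 bp upstream of Foxj2, near the start of Gm5112, with 2 boxes. The Foxred1 promoter had 56, 37 and 52, and the peak is also near the start of Srpr, which encodes a subunit of the signal recognition particle receptor. Neither peak is at the promoter of a forkhead gene.

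Foxc2 and the FoxO genes carried peaks of their own. Foxc2, a factor of lymphatic vessels and mesoderm, had 54, 35 and 49 at its start. Foxo3, known in MuSCs for maintaining quiescence, had 43, 49 and 39 at a peak 1063 bp upstream, with no CCAAT anywhere in it. Foxo1, an activator of atrophy genes in muscle, had 33, 25 and 31 at its start, with the pair of boxes printed above. Foxo6 had a mean of 14.3. Per kb, Foxo3, Foxo1 and Foxo6 were at 148, 132 and 100.9.

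The other 11 forkhead peaks had means from 4.67 to 34.3. They belonged to Foxn4 (2 intronic peaks), Foxn3 (2 intronic peaks), Foxj1, Foxk2, Foxr1, Foxp1, Foxl1, Foxs1 and Foxc1. Foxc1, which shares much of its role with Foxc2, had the lowest mean of them, 4.67, and in replicate 3 it was at or below the limit. Per kb, Foxc1 was at 37.3 and Foxc2 at 160.

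Gata2, a factor of blood stem cells, was the only GATA gene with a peak, and had 48, 37 and 47. The peak is 4752 bp downstream of the listed start, in an untranslated region near the start of another Gata2 transcript.

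The Sox genes had the highest median per kb of any family with more than 1 peak (172). Sox12 had 84, 78 and 100, 8231 bp upstream of its start, with 3 boxes in the peak, all on the strand of the gene. Sox4, of the same group as Sox12 and Sox11, had 90, 66 and 75 at its start, with 4 boxes. Sox9, the master factor of cartilage, had 41, 68 and 58 at 80 bp upstream, and Sox11 had 16, 25 and 28 at 212 bp upstream. Sox30, a germ cell factor, had a mean of 7.67 and was below the limit in replicate 2. The 3 genes of the Sox4 group all had peaks, at 172, 223 and 103 per kb for Sox4, Sox12 and Sox11.

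**Figure D4:**
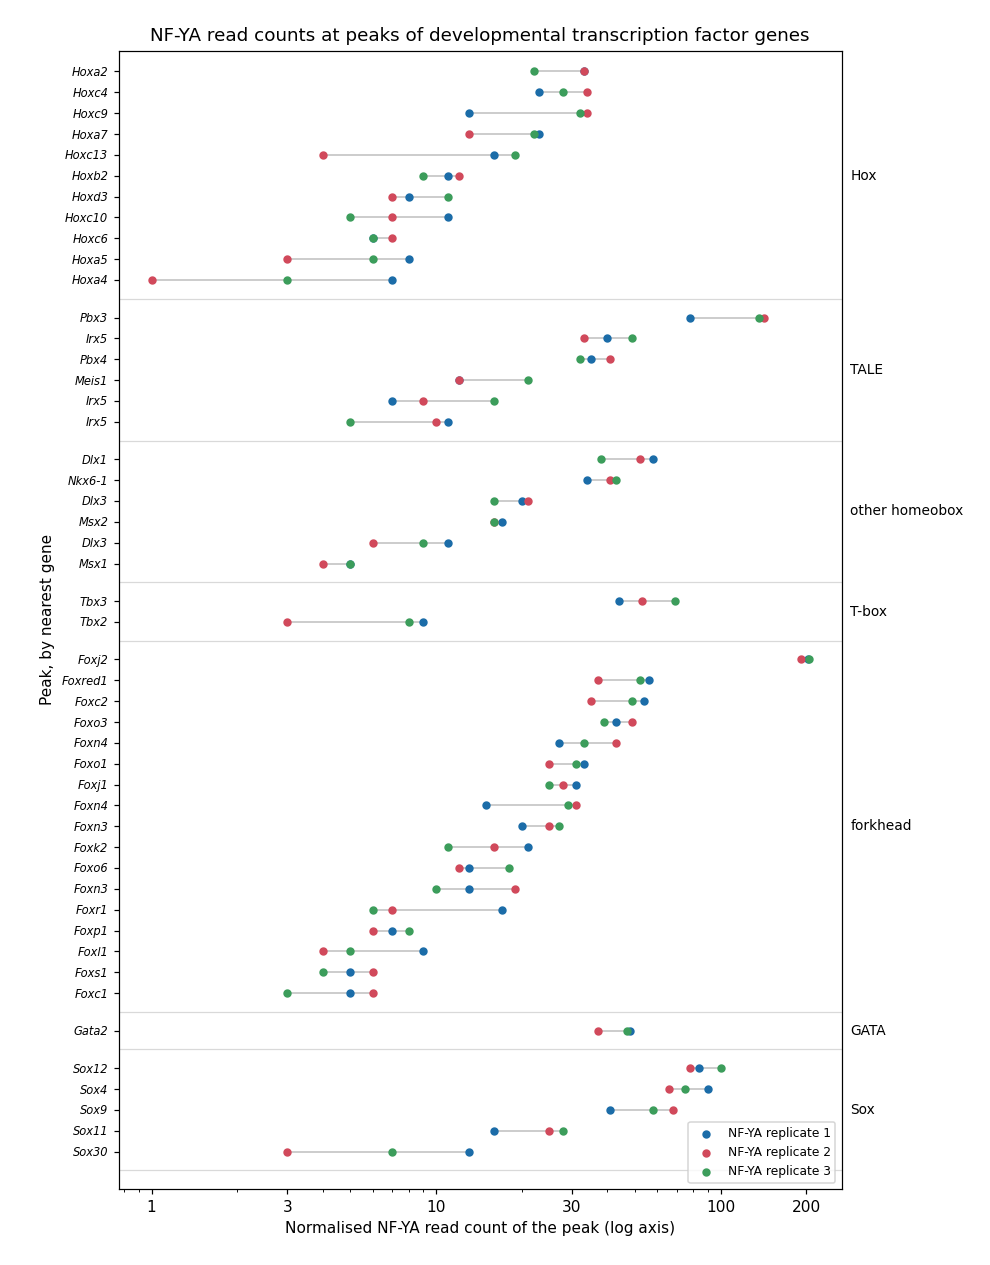
Normalised NF-YA read count (x axis, log) of 48 of the 50 peaks (y axis, by listed gene and family), not scaled for peak length. Points are the 3 NF-YA libraries and grey bars join the lowest to the highest, with coinciding points drawn over each other. The shortest and longest bars include those of Foxj2 (191 to 204) and Hoxa4 (1 to 7), and peaks of like level differ in spread, such as Hoxc6 (6 to 7) and Hoxa5 (3 to 8).

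The spread between libraries was measured in the same way for the 50 peaks and for others. The median coefficient of variation over the 3 libraries was 22.0% for the 50 peaks and 21.3% for all peaks with a symbol. Replicates 1 and 2 differed by more than 2-fold at 7 of the 50 peaks (14%), beside 14.5% of all peaks. Replicates 1 and 3 did so at 3 (6%, beside 11.2%) and replicates 2 and 3 at 2 (4%, beside 12.7%). The 50 peaks took up 0.474, 0.458 and 0.477% of the reads in all peaks.

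Motifs read by these factors themselves, or common at promoters, were searched in the same central windows on both strands. GGGCGG, the box of Sp and KLF factors, was present in 12 of 50 peaks (24%) beside 32.5% of peaks with a symbol. TGACAG, read by Meis and Tgif, was in 4 of 50 (8%) beside 8.45%, and the E-box CAGCTG in 4 of 50 beside 9.52%. TAATTA, a homeodomain element, and GTAAACA, a forkhead element, were in 0 of 50, beside 0.505 and 0.816%. AGATAA, read by GATA factors, was in 1, that of Hoxc9, beside 1.83%. With 50 peaks, 0 allows a share of up to 7.14% (Wilson), so shares as low as these could not be told from 0.

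Developmental regulators whose symbols do not match the rule, taken from a list of 53 genes, are set beside these. Some of them are homeobox genes too. Of them 16 had a peak (30.2%, interval 19.5 to 43.5), beside 19% of all protein-coding genes. They had 24 peaks in all, of which 13 were at promoters, beside 68.4% of all peaks with a symbol. A central box was held by 15 of the 24 (62.5%), beside 59.1%. Six5, a homeobox factor, had 74, 80 and 91. Pitx3, expressed in muscle and in the lens, had 52, 40 and 53, and Runx1, a regulator of blood stem cells, had 32, 44 and 63. Pax3, which marks the embryonic progenitors of muscle, had 17, 24 and 20 at its promoter. Snai1, a repressor of epithelial genes, had 23, 22 and 24, a close spread. Six4, which acts upstream of the myogenic factors, had 2 peaks, with means of 23.7 and 10.7. Pax7, the factor that defines MuSCs, had no annotated peak.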

How the data were processed

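CUT&RUN libraries were made from cultured wild-type MuSCs with an NF-YA antibody (3 libraries) or mouse IgG (3). Per the study's methods, reads were trimmed (Trimmomatic 0.39), aligned to mm10 (STAR 2.7.9a) and deduplicated (Picard 2.25.5); peaks were called against IgG with MACS2 at a false discovery rate of 0.05, unified over libraries, counted with featureCounts and annotated to the nearest gene. The authors deposited 1 table of read counts divided by DESeq2 1.30.0 size factors and rounded, so its unit was handled as a score, and no count model was fitted. The value of 1 read in each library (0.664, 1.48 and 1.02) was estimated from the spacing of the deposited values and tested on simulated data. Values per kb were divided by peak length.

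Sequences, CCAAT boxes and gene starts came from RefSeq GRCm38.p6 and GENCODE M21, the build of the table; all 50 gene names and gene coordinates matched GENCODE M21. Shares have 95% Wilson intervals and their differences Newcombe intervals. Python 3.11.15, pandas 2.3.3, pysam 0.24.0 and statsmodels 0.14.6 were used. The genes, the lists and the tests were chosen with earlier results of these data known. Values in every library are given for every Hox, Meis and Pbx peak but those not reported here, the 4 highest means in each other group, every peak of a gene with at least 3 peaks, and the lowest mean; genes named beyond this, such as Msx1, Foxo1, Foxc1 and those of the list of 53, were chosen after their values were seen. The alternatives tried were other promoter limits, windows, scalings, a minimum mean of 10, and leaving out each library.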

Additional observations from a re-analysis of the deposited data

How the results depend on the processing

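Of 46 alternatives over 11 results, 34 moved by less than the spread between libraries, the interval of the share or difference or, for counts, 1.5 times, and 5 of the 46 were added after seeing the data. The share of family genes with a peak (26.0%) was 16.2% when only peaks within 1000 bp of the gene start counted. That is 28 of 173 genes, beside 3243 of 21951 protein-coding genes, shares closer together than those for any annotated peak. The family share was 19.1% with a minimum mean of 10, for which the share over all protein-coding genes was not computed. The share of peaks at promoters (56%) was 80% within 5000 bp. The median level (21.2) was 32.3 with a minimum mean of 10 and 18 without the 6 peaks near a neighbouring gene's start and Foxred1. The log2 ratio of the 50 peaks to all peaks with a symbol (-0.04) was -0.74 for promoter peaks alone and -0.27 without those neighbouring starts, and it ran from -0.091 to 0.032 as 1 library was left out, turning positive without replicate 1. Among the 50, the log2 ratio of promoter peaks to the rest (-0.33) turned to 0.14 with a limit of 500 bp and to 0.43 when the start of any transcript of any gene counted, so its sign rests on how a promoter is defined. The share with CCAAT (72%) was 86% with 100 bp to either side of the centre and 88% over whole peaks. Among the 34, the difference in CCAAT share between stronger and weaker peaks went from 0 to 16 points per kb and to 12 points with the wider window, inside its wide interval, and peaks above the limit in every library from 42 to 34 at 5 reads. The wider windows hold more sequence and the minimum mean removes the weak peaks; the cause of the other changes was not tested. No paired analysis was possible because only NF-YA libraries had values here.

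Limits are those of the number of reads in peaks and of the annotation. By the study's figures replicate 2 had the most uniquely mapped reads of the NF-YA libraries and replicate 1 the fewest. This is the reverse of their order by reads in peaks. Also by the study's figures, replicate 1 was sequenced with shorter reads than replicates 2 and 3 and gave the most peaks. Whether this bears on the values was not tested. At a limit of 3 reads, 8 of the 50 peaks were not above it in every library, most of them in replicate 2, which had the fewest reads in peaks, so their levels are imprecise. IgG values were not analysed here, and a low peak cannot be set against its own background. In groups of 3 libraries no single library was tested as standing apart.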
